A study of Mus musculus with 12 samples.

Results

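Genes of DNA replication and cell division were examined in tumours of the mouse pancreas in which fibroblasts had been targeted for removal. The group was defined by name, as 37 genes of S phase and of G2 and mitosis, and 34 of them were measured among 30142 genes with a probe set of their own. The 9 measured S-phase genes were Mcm2 to Mcm6, Pcna, Rrm1, Rrm2 and Tyms, and the other 25 act in G2 and mitosis. The probe sets of Mcm7 and Foxm1 list further symbols and were left out, and no probe set listed for Ccnb1 was found, so these 3 genes have no value here. Every measured gene of the group was read by 1 probe set, and none was removed for a low value.

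The 12 tumours came from 12 mice, 3 to a group, and each was read on an array of its own with 1 colour. The groups were PKT mice labelled FAP depleted, their FAP-TK controls, PKT mice labelled aSMA depleted, and their aSMA-TK controls. PKT names the tumour model, which all 4 groups share and which the labels do not spell out. FAP (fibroblast activation protein) and aSMA (alpha smooth muscle actin) are both used as marks of fibroblasts in tumours, and TK is a thymidine kinase that lets ganciclovir kill the cells that carry it. Ganciclovir at 50 ug/kg is given in the labels of all 12 mice, while the controls are marked as having had no depletion, so it is not clear whether the controls received the drug. Neither the promoter that drives TK nor the age of the mice is given in the sources used here. Values are normalised log2 intensities, and those of a group are listed in the order of replicates 1, 2 and 3, which follows the mouse numbers and pairs nothing across groups.

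The targeted genes were read first. Fap was 5.52, 5.34 and 6.21 in FAP depleted tumours, against 6.56, 7.31 and 6.53 in FAP-TK controls, a difference of -1.11 ± 0.37 (SE; limma adjusted p = 1). Acta2 was 10.13, 13.86 and 15.28 in the tumours labelled aSMA depleted, against 12.26, 10.85 and 11.12 in aSMA-TK controls, a difference of 1.68 ± 1.71 (SE; limma adjusted p = 0.949). Fap lay lower in all 3 FAP depleted tumours without passing the test, whereas Acta2 was not lower in the group named for its depletion, so that group is called here the tumours labelled aSMA depleted. Ductal epithelium markers (9 of 9 measured, Epcam and keratins among them) averaged 12.90 to 15.07 over the 12 tumours, so the labelled tissue carried epithelial markers throughout.

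The arrays did not stand on an equal footing. The gap between positive and negative control probe sets was 2.97 and 2.99 on FAP-TK control replicates 1 and 3 and 2.69 on FAP depleted replicate 2, while the other 9 arrays had gaps of 4.32 to 4.89. All 3 arrays with a narrow gap came from the FAP line. Measured genes of the group above the median negative control numbered 26, 14 and 28 of 34 in FAP depleted tumours, 15, 26 and 20 in FAP-TK controls, 25, 30 and 34 in the tumours labelled aSMA depleted and 32, 34 and 30 in aSMA-TK controls. Many of the genes were therefore not above the median negative control on the 3 arrays with a narrow gap. Before normalization, the median negative control lay above the array median on every array. It was 6.49 against 4.52 on FAP-TK control replicate 1 and 4.55 against 4.08 on aSMA-TK control replicate 1. A value under the median negative control does not by itself show that a gene was undetected, and the share of all genes under it is not given here.

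**Figure D1:**
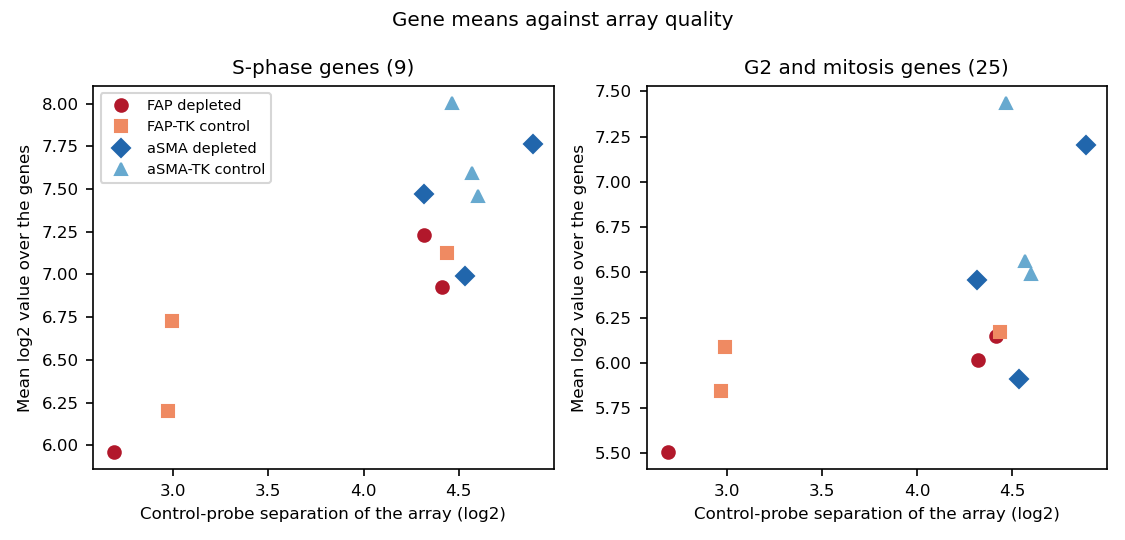
Array quality beside the cell cycle genes. Points are the 12 arrays, and the x axes give the gap between control probe sets (log2). The y axes give the mean log2 value over the 9 S-phase or the 25 G2 and mitosis genes. FAP depleted replicate 2 and FAP-TK control replicates 1 and 3 have gaps under 3. Their counts of genes above the median negative control, 14, 15 and 20 of 34, are not drawn.

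A cell that commits to division first licenses its replication origins and then copies its DNA in S phase. The MCM helicase opens the double strand, the PCNA ring holds the polymerases on it, and ribonucleotide reductase and thymidylate synthase supply the building blocks. After a gap, cyclin and Cdk1 activity, Aurora and Polo kinases, spindle motors and kinetochore proteins carry the cell through mitosis, under a checkpoint that holds anaphase until chromosomes are attached. Transcripts of the first set are driven largely by E2F factors. Those of the second are controlled by the DREAM complex and by MuvB with B-Myb and FoxM1, at promoters that carry CHR and often CCAAT elements. In pancreatic tumours these genes are read as a measure of how many cells are cycling. In bulk tissue, fewer cycling cells and less RNA per cycling cell cannot be told apart.

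Promoters are shown for 4 genes that recur in the comparisons: Ttk and Mki67, which had the most negative differences between FAP depleted and FAP-TK control tumours, and Kif23 and Mcm6, which had the smallest p-values after aSMA targeting. They were chosen as the genes of smallest p in each comparison whose window held a motif named below. Tyms had a smaller p than Mki67 after FAP targeting, but its window held no match. Each window runs 5′ to 3′ on the gene's strand, from 250 bases before to 50 after the start in RefSeq's GRCm38.p6 annotation, and capitals mark matches to the motifs named below. The windows are Ttk at chr9:83834439-83834738 (plus strand), Mki67 at chr7:135716330-135716629 (minus strand), Kif23 at chr9:61946750-61947049 (minus strand) and Mcm6 at chr1:128359656-128359955 (minus strand).
Ttk: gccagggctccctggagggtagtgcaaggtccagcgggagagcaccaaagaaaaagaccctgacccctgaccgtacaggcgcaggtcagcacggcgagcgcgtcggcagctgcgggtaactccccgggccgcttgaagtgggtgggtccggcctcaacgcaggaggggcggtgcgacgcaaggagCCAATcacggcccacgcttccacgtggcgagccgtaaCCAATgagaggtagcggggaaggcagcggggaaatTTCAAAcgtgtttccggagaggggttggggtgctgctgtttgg
Mki67: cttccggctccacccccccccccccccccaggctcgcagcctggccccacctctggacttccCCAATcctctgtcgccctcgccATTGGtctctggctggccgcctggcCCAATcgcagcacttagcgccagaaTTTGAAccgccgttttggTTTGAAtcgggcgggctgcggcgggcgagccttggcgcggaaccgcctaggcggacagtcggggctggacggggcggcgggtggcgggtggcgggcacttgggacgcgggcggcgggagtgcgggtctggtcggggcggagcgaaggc
Kif23: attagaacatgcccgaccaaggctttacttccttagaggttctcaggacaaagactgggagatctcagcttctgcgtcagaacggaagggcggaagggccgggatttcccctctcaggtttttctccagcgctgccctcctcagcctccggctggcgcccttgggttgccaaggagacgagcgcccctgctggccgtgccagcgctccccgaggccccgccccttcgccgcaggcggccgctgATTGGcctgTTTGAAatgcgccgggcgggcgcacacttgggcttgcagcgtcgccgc
Mcm6: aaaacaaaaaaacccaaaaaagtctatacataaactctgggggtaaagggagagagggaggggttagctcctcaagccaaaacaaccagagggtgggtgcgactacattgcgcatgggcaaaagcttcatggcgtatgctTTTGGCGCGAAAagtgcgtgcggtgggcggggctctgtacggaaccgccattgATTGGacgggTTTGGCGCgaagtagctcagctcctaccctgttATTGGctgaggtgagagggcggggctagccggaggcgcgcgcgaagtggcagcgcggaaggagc

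The motifs searched on both strands were the E2F sites TTTCCCGC, TTTCGCGC, TTTGCCGC and TTTGGCGC, the CHR element TTTGAA, and CCAAT. RefSeq windows were found for 29 of the 34 measured genes, as 31 promoters. The Ttk window held CCAAT at 65 and 28 bases upstream and a reverse-strand CHR match 8 bases into the transcript, and the Kif23 window held a reverse-strand CCAAT 7 bases upstream and a CHR match 3 bases into the transcript. In the Mki67 window lie 3 CCAAT matches, at 188, 166 and 141 bases upstream, and then CHR matches at 116 and 98 bases. Mcm6 had no CHR match but 3 E2F matches, at 110, 106 and 47 bases upstream, of which the first pair overlap on opposite strands, and CCAAT matches at 57 and 14 bases.

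The classes differed in these letters. A CHR match stood in 78.3% of the 23 G2 and mitosis promoters (18 of 23) and in 12.5% of the 8 S-phase promoters (1 of 8, that of Mcm2), against 17.9% of all 32851 RefSeq promoters. Each of those 18 also held CCAAT, a combination found in 6.95% of all promoters. Ect2 and Prc1 count more than once through overlapping windows, and by gene the CHR match stood in 16 of 21, against 5466 of 27025 genes. E2F matches ran the other way, with 37.5% of S-phase promoters (3 of 8: Mcm3, Mcm5 and Mcm6) and 4.35% of G2 and mitosis promoters (1 of 23, that of Cdk1), against 2.26% of all promoters. CCAAT was common to both classes, at 87.5% of S-phase and 87.0% of G2 and mitosis promoters, against 37.4% of all promoters. In 1 promoter, that of Cdca8, matches of different motifs overlapped. These are matches of letters, and no factor's binding was measured here.

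Within each line, tumours of a group differed by more than the group means did. The mean over the 9 S-phase genes was 7.23, 5.96 and 6.93 in FAP depleted tumours and 6.20, 7.13 and 6.73 in FAP-TK controls. For the aSMA line it was 6.99, 7.47 and 7.76 in the tumours labelled aSMA depleted and 7.59, 8.00 and 7.46 in aSMA-TK controls. The FAP groups overlapped fully and the aSMA groups in part, and the aSMA line lay mostly above the FAP line. The mean over the 25 G2 and mitosis genes was 6.02, 5.51 and 6.15 in FAP depleted tumours and 5.84, 6.17 and 6.09 in FAP-TK controls. It was 5.91, 6.46 and 7.20 in the tumours labelled aSMA depleted and 6.56, 7.43 and 6.49 in aSMA-TK controls. The lowest mean in both classes was FAP depleted replicate 2, an array with a narrow gap between control probe sets, and the highest was aSMA-TK control replicate 2.

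**Figure D2:**
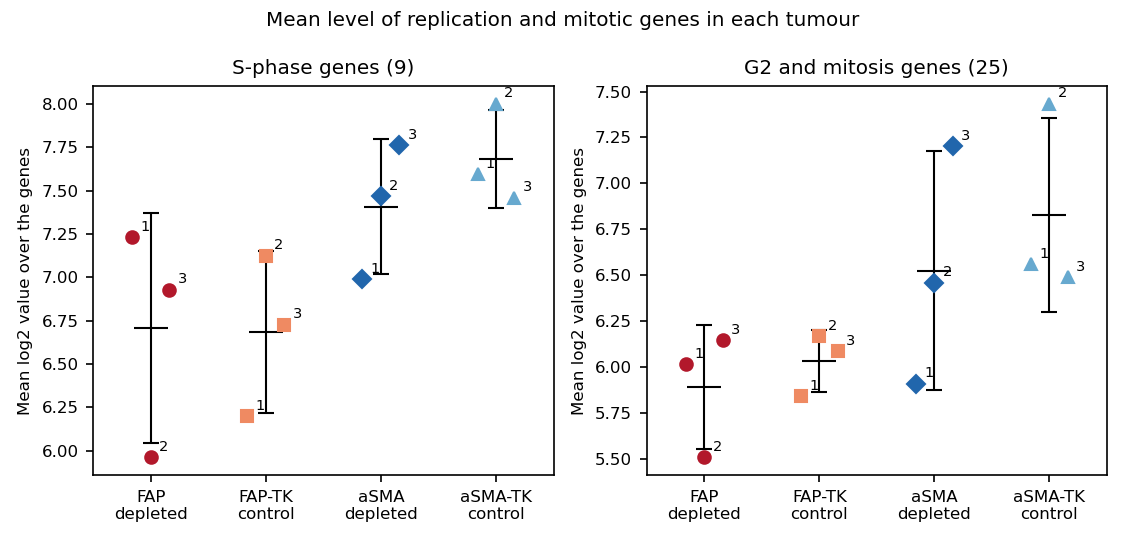
Mean level of the S-phase and the G2 and mitosis genes in each tumour. Points are tumours, the y axes give the mean normalised log2 intensity over the 9 or 25 measured genes, and bars are group means with SD (n = 3); FAP depleted tumours averaged 6.71 ± 0.66 and FAP-TK controls 6.68 ± 0.47 for the S-phase genes.

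The extremes came from few tumours. FAP depleted replicate 2 gave the lowest of the 12 values in 30 of the 34 genes, while it did so in 16.4% of all genes. The highest of 12 values came from aSMA-TK control replicate 2 in 26 of the 34 genes, against 11.1% of all genes, and from the tumour labelled aSMA depleted replicate 3 in the other 8, against 8.59% of all genes. Genes of different roles thus shared their high and low tumours: within the tumours labelled aSMA depleted, replicate 1 was lowest in 9 of 9 S-phase and 24 of 25 G2 and mitosis genes, and in 38.4% of all genes. FAP depleted replicate 2 was also the lowest of the 12 arrays in the means of the fibroblast (7.58), leukocyte (5.24) and endothelium (5.34) markers. Its means of the ductal epithelium (13.20) and acinar (7.23) markers were not the lowest. The part of array quality or of these other cells in that tumour's low values was not tested.

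**Figure D3:**
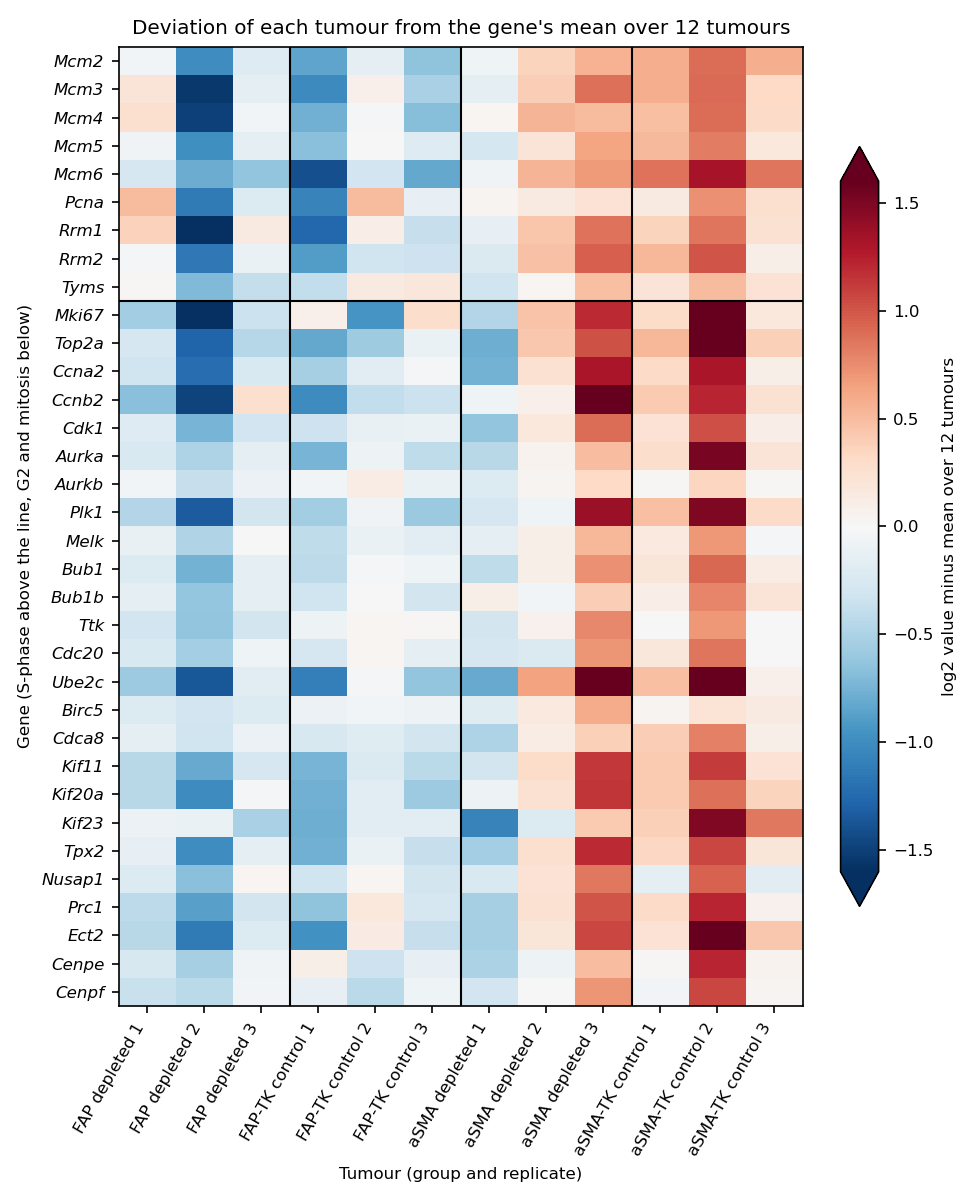
The 34 measured genes in the 12 tumours. Each row is a gene, ordered by role, each column a tumour, and the colour gives log2 intensity minus the gene's mean over the 12 tumours; FAP depleted replicate 2 is the lowest column in 30 rows and aSMA-TK control replicate 2 the highest in 26.

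For each role below, the gene whose probe set had the highest mean over the 12 arrays is given tumour by tumour. Among origin licensing genes, Mcm6, a subunit of the replicative helicase, was 7.58, 7.05 and 7.22 in FAP depleted tumours and 6.44, 7.54 and 7.03 in FAP-TK controls. It was 7.79, 8.39 and 8.53 in the tumours labelled aSMA depleted and 8.72, 9.16 and 8.70 in aSMA-TK controls. The FAP groups overlapped, the tumours labelled aSMA depleted all lay below their controls, and every tumour of the aSMA line lay above every tumour of the FAP line. Mcm2, of the same helicase, was 6.00, 5.05 and 5.83 in FAP depleted tumours, 5.19, 5.90 and 5.40 in FAP-TK controls, 5.97, 6.39 and 6.60 in the tumours labelled aSMA depleted and 6.63, 6.93 and 6.62 in aSMA-TK controls. Its pattern over the groups followed that of Mcm6, except that the lowest aSMA line tumour lay just under the highest of the FAP line. Of the 5 licensing genes, 3 had a mean above control after FAP targeting and 5 had a mean below control after aSMA targeting.

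Among the genes of the clamp and of nucleotide supply, Pcna, the sliding clamp of the polymerases, was 9.81, 8.17 and 9.09 in FAP depleted tumours and 8.23, 9.81 and 9.18 in FAP-TK controls. In the aSMA line it was 9.35, 9.45 and 9.53 in the tumours labelled aSMA depleted and 9.45, 10.04 and 9.56 in aSMA-TK controls. All 4 groups overlapped for Pcna, whose differences were -0.05 ± 0.45 for FAP and -0.24 ± 0.45 for aSMA targeting (SE; limma adjusted p = 1 and 0.972). Tyms, thymidylate synthase, had a difference of -0.33 ± 0.25 after FAP targeting, while Rrm1 and Rrm2, the subunits of ribonucleotide reductase, had differences of 0.13 and 0.09. After aSMA targeting the differences of these 3 genes were -0.25, -0.09 and -0.14.

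Mki67, which encodes the Ki-67 antigen used to stain cycling cells, was 9.00, 7.74 and 9.21 in FAP depleted tumours and 9.63, 8.61 and 9.83 in FAP-TK controls. It was 9.08, 10.01 and 10.75 in the tumours labelled aSMA depleted and 9.85, 11.20 and 9.72 in aSMA-TK controls. The lowest FAP-TK control lay under 2 of the 3 FAP depleted tumours, and the aSMA groups overlapped more widely. Top2a, the topoisomerase that untangles replicated chromosomes, had differences of -0.18 for FAP and -0.72 for aSMA targeting.

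Ccna2, the cyclin of S phase and G2, was 7.05, 6.16 and 7.13 in FAP depleted tumours and 6.85, 7.19 and 7.35 in FAP-TK controls. Its values were 6.62, 7.62 and 8.69 in the tumours labelled aSMA depleted and 7.68, 8.69 and 7.47 in aSMA-TK controls, and both pairs of groups overlapped. Ccnb2, a mitotic cyclin, and Cdk1, its kinase, had differences of -0.05 and -0.23 for FAP and of -0.04 and -0.31 for aSMA targeting. Among the kinases, Plk1, which acts from mitotic entry to cytokinesis, was 6.47, 5.61 and 6.65 in FAP depleted tumours and 6.39, 6.89 and 6.35 in FAP-TK controls. Plk1 was 6.67, 6.88 and 8.33 in the tumours labelled aSMA depleted and 7.43, 8.44 and 7.25 in aSMA-TK controls. Its groups overlapped in each line, as did those of Aurka, the kinase of spindle poles, Aurkb, the kinase of the chromosomal passenger complex, and Melk, a kinase of dividing cells.

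Of the spindle checkpoint genes, Bub1b, which encodes BubR1 of the mitotic checkpoint complex, was 5.48, 5.01 and 5.47 in FAP depleted tumours and 5.30, 5.61 and 5.33 in FAP-TK controls. It was 5.71, 5.58 and 6.02 in the tumours labelled aSMA depleted and 5.72, 6.40 and 5.83 in aSMA-TK controls, so each pair overlapped. Ttk, the Mps1 kinase that starts checkpoint signalling, was 4.87, 4.56 and 4.89 in FAP depleted tumours and 5.10, 5.22 and 5.20 in FAP-TK controls, with no overlap. All 6 of these values lay under the median negative control of their arrays. In the aSMA line Ttk was 4.88, 5.25 and 5.95 in the tumours labelled aSMA depleted and 5.17, 5.88 and 5.19 in aSMA-TK controls, which overlapped. Bub1, the checkpoint kinase at kinetochores, had differences of -0.20 and -0.27 for FAP and aSMA targeting.

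Ube2c, the ubiquitin-conjugating enzyme of the anaphase-promoting complex, was 6.98, 6.20 and 7.39 in FAP depleted tumours and 6.46, 7.53 and 6.92 in FAP-TK controls. It was 6.75, 8.20 and 9.20 in the tumours labelled aSMA depleted and 8.04, 9.39 and 7.64 in aSMA-TK controls. The 3 tumours labelled aSMA depleted thus spanned from below to near the top of the aSMA-TK controls. Cdc20, the activator of that complex, had differences of -0.15 and -0.28 for FAP and aSMA targeting.

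In the chromosomal passenger complex, Cdca8, or borealin, was 4.95, 4.77 and 5.01 in FAP depleted tumours and 4.84, 4.90 and 4.80 in FAP-TK controls. It was 4.60, 5.21 and 5.48 in the tumours labelled aSMA depleted and 5.49, 5.90 and 5.18 in aSMA-TK controls. Birc5, or survivin, was 4.45, 4.36 and 4.45 in FAP depleted tumours, 4.58, 4.62 and 4.59 in FAP-TK controls, 4.48, 4.83 and 5.26 in the tumours labelled aSMA depleted and 4.71, 4.89 and 4.82 in aSMA-TK controls. Birc5 separated the FAP groups by a narrow margin and did not separate the aSMA groups. The FAP line values of Birc5 and Cdca8 all lay under the median negative control, which was 5.29 to 6.02 on those arrays.

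Kif23, the MKLP1 motor of the central spindle, was 8.01, 8.00 and 7.59 in FAP depleted tumours and 7.33, 7.94 and 7.94 in FAP-TK controls. It was 7.04, 7.88 and 8.53 in the tumours labelled aSMA depleted and 8.49, 9.58 and 8.95 in aSMA-TK controls. Only the top tumour labelled aSMA depleted reached into the range of its controls, by a small margin. Among the other 6 genes of spindle and midzone, Ect2, the exchange factor that starts the cleavage furrow, had the next most negative difference after aSMA targeting, at -0.51, and Prc1, which bundles midzone microtubules, the most negative after FAP targeting, at -0.28. At kinetochores, Cenpe, a chromosome-aligning motor, was 6.28, 6.01 and 6.48 in FAP depleted tumours and 6.63, 6.21 and 6.40 in FAP-TK controls. Cenpe was 6.03, 6.45 and 7.02 in the tumours labelled aSMA depleted and 6.56, 7.75 and 6.59 in aSMA-TK controls, and Cenpf, a large protein of the outer kinetochore, overlapped between groups in the same way.

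The tumours labelled FAP depleted were compared first with their own controls. No gene of the group passed the test in FAP depleted tumours, with 0 of 34 called by limma at an adjusted p under 0.05, 0% of all 30142 genes called, and 0 of 34 at an unadjusted p under 0.05, against 3.71% of all genes. The mean was below control in 24 of 34 genes, against 40.1% of all genes, made up of 20 of 25 G2 and mitosis genes and 4 of 9 S-phase genes. The median difference was -0.10 over the 34 genes and 0.04 over all genes. Mki67 had the most negative difference, at -0.71 ± 0.58, and Mcm6 the most positive, at 0.28 ± 0.29 (SE; limma adjusted p = 1 for both). Ttk (-0.40 ± 0.27) and Birc5 (-0.17 ± 0.16) were the 2 genes whose groups did not overlap (SE; limma adjusted p = 1 for both), against 2.50% of all genes without overlap in that direction.

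This count moved with single tumours in both directions. Without FAP depleted replicate 2, 11 rather than 24 of the 34 genes had a mean below control, and without FAP-TK control replicate 2, 14 did. Without FAP-TK control replicate 1 it was 33, without FAP depleted replicate 1 it was 30, and without all 3 arrays of narrow gap it was 23. That last fit kept only replicate 2 of the FAP-TK controls and replicates 1 and 3 of the FAP depleted tumours. The mean of the S-phase genes differed by 0.02 between FAP depleted and FAP-TK control tumours, and by -0.24 to 0.40 as each tumour was left out. For the G2 and mitosis genes it differed by -0.14, and by -0.27 to 0.05 as each tumour was left out. In 31 of 34 genes the difference was smaller than the range within each of the groups, as it was for 78.2% of all genes.

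The tumours labelled aSMA depleted were set against aSMA-TK controls in the same way. Here too 0 of 34 genes were called by limma (0% of all genes), with 1 of 34 at an unadjusted p under 0.05, against 4.81% of all genes. That gene was Kif23, at -1.19 ± 0.38 (SE; limma adjusted p = 0.944). The mean was below control in 32 of 34 genes, against 46.8% of all genes, including 9 of 9 S-phase genes; Birc5 and Nusap1, which encodes a spindle microtubule binder, were the exceptions at 0.05 and 0.07. The median difference was -0.26 over the 34 genes and 0.01 over all genes. Mcm6 (-0.62 ± 0.29) and Mcm2 (-0.41 ± 0.28) had groups that did not overlap (SE; limma adjusted p = 0.944 for both), against 5.08% of all genes in that direction.

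This direction rested on few tumours. Without the tumour labelled aSMA depleted replicate 1, 15 of 34 genes had a mean below control, without aSMA-TK control replicate 2, 18 did, and without the tumour labelled aSMA depleted replicate 3, 34 did. The mean of the S-phase genes differed by -0.28, and by -0.46 to -0.07 as each tumour was left out. For the G2 and mitosis genes it differed by -0.30, and by -0.644 to 0.004 as each tumour was left out. Within-group ranges exceeded the difference in 30 of 34 genes, against 69.5% of all genes. No array of this line had a narrow gap between control probe sets.

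**Figure D4:**
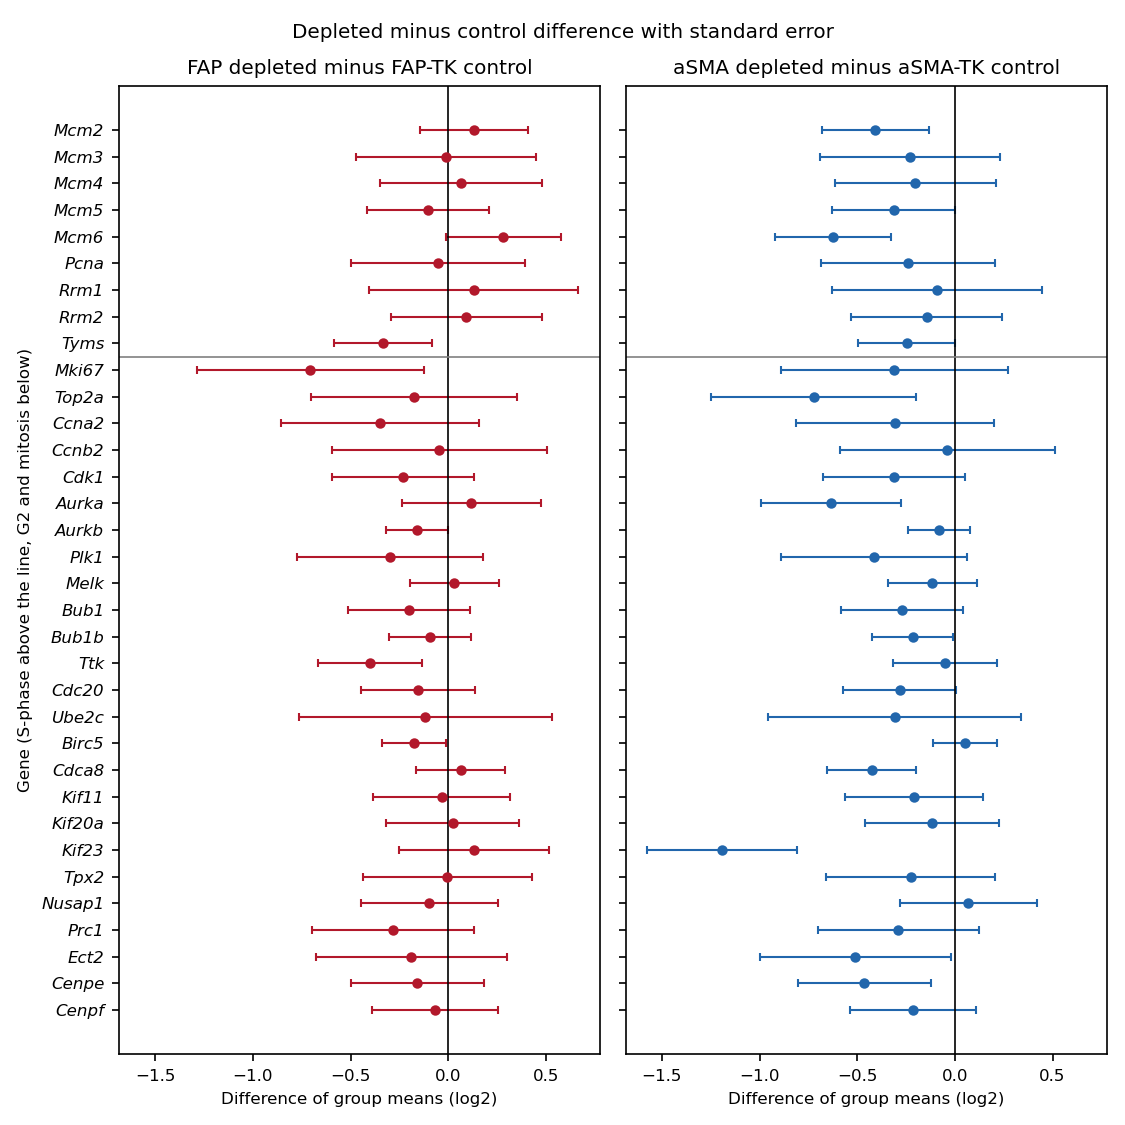
Differences of the 34 genes in the FAP and the aSMA comparison. Points are depleted minus control on the log2 scale with SE from limma; 24 genes lie below 0 for FAP and 32 for aSMA, and in neither comparison did a gene pass the adjusted threshold of 0.05.

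The effects of the FAP and aSMA targeting were compared in a test of their difference, FAP minus aSMA. None of the 34 genes was called by limma (0% of all genes), and 1 had an unadjusted p under 0.05, against 5.96% of all genes. Kif23 was that gene, with a difference between effects of 1.32 ± 0.54 (SE; limma adjusted p = 0.829), followed by Mcm6 at 0.91 ± 0.42 (SE; limma adjusted p = 0.829). The difference was below 0 in 8 of 34 genes, against 46.4% of all genes, with quantile-normalised values, in 18 with the deposited values and in 23 after median centring, so its direction depended on the scaling.

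The FAP and aSMA lines were then compared, first between their controls. All 34 genes had a lower mean in FAP-TK than in aSMA-TK controls, against 58.2% of all genes, and in 26 the groups did not overlap, against 21.3% of all genes in that direction. The median difference was -0.86 over the 34 genes and -0.07 over all genes. Called by limma were 2 of 34 genes, against 7.80% of all genes, and 16 of 34 had an unadjusted p under 0.05, against 28.2% of all genes. The called genes were Mcm6, at -1.86 ± 0.29 (SE; limma adjusted p = 0.0116), and Mcm2, at -1.23 ± 0.28 (SE; limma adjusted p = 0.0311), and each FAP-TK control lay below each aSMA-TK control for both. Mcm2 lay under the median negative control on FAP-TK control replicates 1 and 3, whereas Mcm6 lay above it on all 12 arrays. Top2a (-1.44), Ube2c (-1.39) and Kif23 (-1.27) had more negative differences than Mcm2 and were not called.

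This difference between lines depended on how the arrays were scaled. Before normalization the array medians were 4.41 to 4.65 in the FAP line and 3.89 to 4.10 in the aSMA line, and with the deposited values 17 of 34 genes, rather than 34, were lower in FAP-TK controls. Their median difference was then 0.02, while that of all genes was 0.39, which left the 34 genes 0.37 below all genes. After median centring, 32 of 34 were lower, with a median of -0.43 and of -0.06 over all genes, again 0.37 below. Over all genes, calls numbered 1440 lower and 910 higher with quantile normalization, 424 lower and 12019 higher as deposited, and 3342 lower and 2427 higher after median centring. The share of the 34 genes at an unadjusted p under 0.05 also depended on it, at 16 of 34 against 28.2% of all genes after quantile normalization, but 3 of 34 against 36.5% after median centring and 3 of 34 against 50.2% as deposited. With the control gap as a covariate it was 3 of 34 against 23.2% of all genes. Mcm6 was lower in FAP-TK controls under each scaling, at -0.93 as deposited (limma adjusted p = 0.0198), whereas Mcm2 was called after quantile normalization and median centring and not as deposited (-0.36, limma adjusted p = 0.215). Aurkb was called as deposited in the other direction, higher in FAP-TK controls by 0.42 (limma adjusted p = 0.0474), where quantile normalization gave -0.14. Without the 3 arrays of narrow control gap, only replicate 2 of the FAP-TK controls remained, and Mcm6 differed by -1.32. The line and the way its arrays were made or processed cannot be told apart.

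Between the depleted groups of the lines, 33 of 34 genes had a lower mean in FAP depleted tumours than in those labelled aSMA depleted, against 55.2% of all genes, with Kif23 (0.05) the exception. None was called by limma, while 5.18% of all genes were, and 5 of 34 had an unadjusted p under 0.05, against 24.6% of all genes. Groups did not overlap in 4 genes, Mcm6, Birc5, Plk1 and Bub1b, against 18.2% of all genes in that direction. Mcm6 had the smallest p, at -0.95 ± 0.29 (SE; limma adjusted p = 0.0907). As deposited, 15 of 34 genes were lower and the median was 0.05, against 0.45 over all genes.

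**Figure D5:**
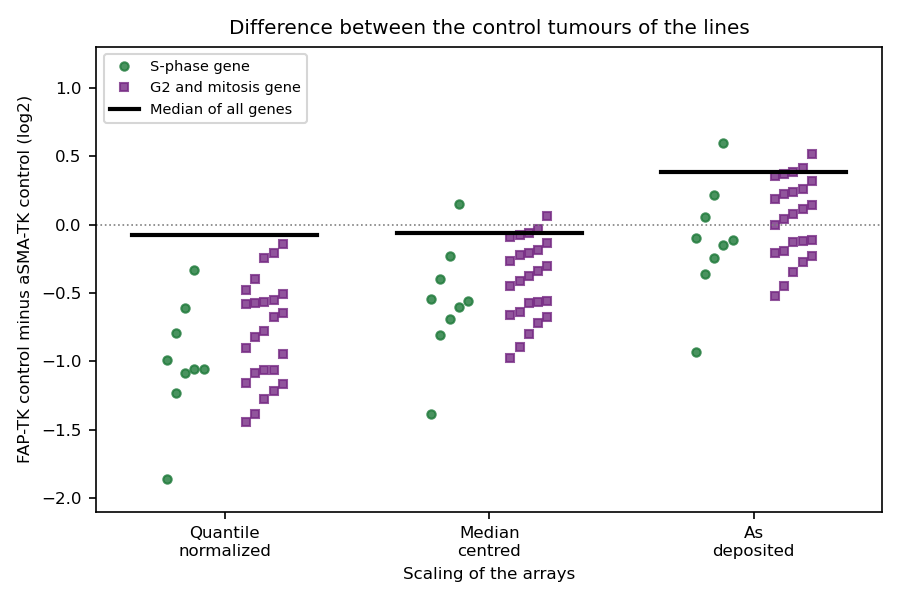
The 34 genes between lines under 3 scalings. Points are genes, the y axis gives FAP-TK control minus aSMA-TK control on the log2 scale, and lines mark the median of all genes. That median was -0.07 after quantile normalization, -0.06 after median centring and 0.39 as deposited. The median of the 34 genes, which is not drawn, was -0.86, -0.43 and 0.02 in the same order.

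Other genes of the same pathway, which are not in the group, were read from 3 lists. Of 28 measured cyclin, inhibitor and Rb-E2F genes, 0 were called after FAP or aSMA targeting, and 12 had a mean below control after FAP and 9 after aSMA targeting, against 40.1% and 46.8% of all genes. Cdk6, a kinase of G1, had the smallest p after FAP targeting (1.32 ± 0.38 SE; limma adjusted p = 1), and Wee1, the kinase that restrains Cdk1, after aSMA targeting (0.96 ± 0.34 SE; limma adjusted p = 0.944). Of 27 other replication genes, 0 were called in either comparison, and 14 and 16 were below control after FAP and aSMA targeting. Of 35 other G2 and mitosis genes, 0 were called in either, and 22 and 28 were below control. Between the line controls 1 of 28, 4 of 27 and 2 of 35 genes of these lists were called, against 7.80% of all genes. A lower mean in FAP-TK controls was found in 15 of the 28 cyclin, inhibitor and Rb-E2F genes and 30 of the 35 other G2 and mitosis genes. The share over all genes was 58.2%. Ccnd3, the 1 called gene of the cyclin list, was higher there (0.50, limma adjusted p = 0.0417). Of the 27 other replication genes, 18 had a lower mean in FAP-TK controls, and of the 4 called, 2 were lower and 2 higher. The higher ones, which also had the smallest p, were Rfc3 of the clamp loader (0.70, limma adjusted p = 0.0116) and Orc6 of the origin recognition complex (0.68, limma adjusted p = 0.0141). Cdca5, which stabilises cohesion (-0.72, limma adjusted p = 0.0446), and Espl1, the separase that cuts it (-0.46, limma adjusted p = 0.047), were lower there. Between the depleted groups of the lines, 0 of 28, 2 of 27 and 1 of 35 genes were called, against 5.18% of all genes. Each of those called was higher in FAP depleted tumours.

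No cell type marker was called in the FAP or the aSMA comparison. The mean of the ductal epithelium markers (9 of 9 measured) ranged over 13.20 to 15.07 in FAP depleted tumours, 12.90 to 13.98 in FAP-TK controls, 14.26 to 14.33 in the tumours labelled aSMA depleted and 13.94 to 14.70 in aSMA-TK controls. They were above control in 9 of 9 after FAP and in 4 of 9 after aSMA targeting. Fibroblast markers (8 of 9 measured) ranged over 7.58 to 10.08 in FAP depleted tumours, 9.01 to 10.49 in FAP-TK controls, 10.01 to 11.33 in the tumours labelled aSMA depleted and 9.14 to 9.99 in aSMA-TK controls. The mean was below control in 8 of 8 of them after FAP targeting and above control in 8 of 8 after aSMA targeting, and the fibroblast mean was higher in the tumours labelled aSMA depleted than in any aSMA-TK control. Leukocyte markers (9 of 10 measured) ranged over 5.24 to 6.80 in FAP depleted tumours, 5.47 to 7.40 in FAP-TK controls, 6.70 to 7.83 in the tumours labelled aSMA depleted and 6.24 to 6.77 in aSMA-TK controls, with 8 of 9 markers below control after FAP and 9 of 9 above control after aSMA targeting. Acinar markers (8 of 9 measured) ranged over 7.23 to 8.71 in FAP depleted tumours, 6.32 to 7.68 in FAP-TK controls, 5.63 to 10.93 in the tumours labelled aSMA depleted and 8.02 to 9.43 in aSMA-TK controls, with 8 of 8 above control after FAP and 5 of 8 after aSMA targeting. Between the line controls, 8 of 9 ductal epithelium markers had a lower mean in FAP-TK controls (median -1.01), and 2 of them were called, against 7.80% of all genes. There 7 of 8 acinar (median -1.59) and 5 of 5 endothelium markers (median -0.74) were also lower, as were 2 of 8 fibroblast and 5 of 9 leukocyte markers, and none of these was called. The tumour labelled aSMA depleted replicate 1 had both the lowest acinar and the lowest mitotic mean of its group, and replicate 3 the highest of both. The fibroblast means of that group rose in the same order, at 10.01, 10.60 and 11.33. In aSMA-TK controls the acinar order was reversed, with replicate 2 lowest in acinar (8.02) and highest in mitotic mean (7.43). Replicate 3 of these controls was highest in acinar (9.43) and lowest in mitotic mean (6.49). In each FAP line group the same tumour was lowest in both, but different tumours were highest. The part of these cell types in the cell cycle values was not tested.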

How the data were processed

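Total RNA of 12 mouse pancreas tumours was measured on one-colour arrays. The authors' deposited log2 values cover 72688 probe sets and run from 1.64 to 19.93; the log2 scale was read from the values, and how the authors corrected, summarised and normalised them is not given in the sources used here. Only limma is named, in the submitters' processing notes. The labels' protocols name a kit for Illumina arrays, although the identifiers follow an Affymetrix whole-transcript design. The highest deposited value exceeds the range of a usual scanner, so differences are given in these units and not as folds.

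Leaving out 6732 control probe sets, 65956 were quantile normalised between arrays, because the medians of the deposited columns differed. Probe sets with exactly 1 symbol in the platform annotation (30604 of the 32750 listed) were kept, 827 symbols were updated through the RefSeq gene table of GRCm38.p6, and for 355 genes with several probe sets the one of highest mean was used, which gave 30142 genes. Models with 1 mean per group over all 12 arrays were fitted with limma 3.58.1 (R 4.3.3, statmod 1.5.0), and moderated two-sided p-values were adjusted by Benjamini-Hochberg over all genes and called under 0.05. All groups share 1 estimate of spread. The fit was tested on simulated data. Means over genes carry no test. The number of arrays limits the precision.

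Members, lists and tests were chosen with earlier results of these data known. Genes were given tumour by tumour where they had the highest mean of their role, an unadjusted p under 0.05 or groups without overlap in a depletion comparison; of other genes at most 2 of smallest p per list were named. Alternatives were median centring, the deposited values, genes above the median level, the mean of probe sets, only the groups compared, array weights, trended and robust variance, the control gap as a covariate, leaving out the 3 arrays with a gap under 4, and leaving out each array in turn. Promoters and starts are RefSeq's, and figures were drawn with matplotlib 3.10.9.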

Additional observations from a re-analysis of the deposited data

How the results depend on the processing

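In the FAP and aSMA comparisons and in the difference of their effects, 0 of 34 genes were called under every alternative run. Leaving out the 3 arrays of narrow gap kept only replicate 2 of the FAP-TK controls, so calls between the lines are not given for it. Between the line controls, the 2 called genes became 1 with only genes above the median level and 0 with only the groups compared. They became 9 with array weights and 1 with the control gap as a covariate. As each array was left out they numbered 1 to 4, with 4 without the tumour labelled aSMA depleted replicate 1. There the S-phase mean, -1.001, was -0.56 after median centring, -0.11 as deposited and -0.56 without the 3 arrays, and the G2 and mitosis mean, -0.79, was 0.043 as deposited; leaving out each array gave -1.22 to -0.76 and -0.96 to -0.49. Between the depleted groups of the lines, array weights called 2 genes, and leaving out each array 0 to 1 (Birc5, without the tumour labelled aSMA depleted replicate 1). There the S-phase mean, -0.70, was -0.017 and the G2 and mitosis mean, -0.63, was 0.049 as deposited, and leaving out each array gave -0.96 to -0.33 and -0.94 to -0.29. Over all genes, calls between the line controls numbered 2350, against 5769 after median centring, 12443 as deposited and 258 above the median level. They numbered 212 with only the groups compared, 6658 with array weights and 1012 with the covariate. Between the depleted groups they numbered 1562, against 3391, 14287, 104, 1, 4502 and 1168 in the same order. For the difference of effects, the S-phase mean was 0.04 to 0.67 and the G2 and mitosis mean -0.15 to 0.50 as each array was left out. After FAP targeting, 24 of 34 genes had a mean below control, against 15 with array weights, 26 after median centring and as deposited, 30 with the covariate and 23 without the 3 arrays. For aSMA targeting the count of 32 became 27 with array weights and after median centring, 31 as deposited and 32 with the covariate. The median difference of the 34 genes, -0.26, was -0.09 with array weights and after median centring and -0.17 as deposited. The cause of these changes was not tested. No paired analysis was possible because the labels give each mouse its own number and replicate numbers only name the samples.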
